A study of Rattus norvegicus with 8 samples.

Results

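Insl3, the peptide hormone of Leydig cells, and 8 genes that act around it in these cells were followed in cultured fetal rat testes exposed to mono-(2-ethylhexyl) phthalate (MEHP). The 8 others were the membrane receptors Lhcgr and Pdgfra and the transcription factors Nr5a1, Nr0b1, Nr2f1, Nr2f2, Nr4a1 and Gata4. They were found by their gene names on an Agilent Whole Rat Genome oligonucleotide array, on which 11 of 41012 probes and 9 of 35581 gene names belonged to them. Lhcgr and Nr2f1 had 2 probes each and every other gene had 1.

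Testes were explanted from Sprague-Dawley rat fetuses in mid-gestation and kept for 72 h on filters in M199 medium, with MEHP at 1 µM or 10 µM or with the vehicle DMSO. MEHP is the hydrolysis product through which the plasticizer di-(2-ethylhexyl) phthalate reaches tissues. The labels gave 1 testis at 1 µM and 3 testes at 10 µM, and the methods place treated testes in different litters. Each was hybridized on 2 arrays, 8 in all, against a single pool of RNA from 3 DMSO-treated testes of 3 litters. The pool was therefore 1 control sample, so the tests leave out the spread between control testes, and p-values measure only the spread between treated testes.

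INSL3 is secreted by fetal Leydig cells and acts on its receptor RXFP2 in the gubernaculum, the ligament that guides the first phase of testicular descent. The orphan nuclear receptor SF-1, encoded by Nr5a1, drives the Insl3 promoter and the genes of steroid synthesis, and its effect is opposed by DAX-1, the product of Nr0b1. NUR77 (Nr4a1), COUP-TFII (Nr2f2) and GATA4 bind promoters of the same cells, whereas LH acts through the receptor encoded by Lhcgr and PDGF through the receptor encoded by Pdgfra. Loss of PDGF receptor alpha impairs fetal Leydig cell differentiation, and COUP-TFII marks interstitial cells from which Leydig cells arise.

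The promoter of Insl3 is shown because several of these receptors bind variants of the sequence AGGTCA. The RefSeq window of assembly GRCr8, chr16:18432939-18433238 on the plus strand, runs from 250 bases before to 50 bases after the start of the annotated transcript. It is printed 5′ to 3′, and capitals mark the only match to a searched word, AGGTCA on the minus strand, at bases −108 to −103 from the start. The 50 bases from that start open with ATG, and the gene annotation begins Insl3 at base 18432668, before the window. The positions may therefore not be counted from the start of transcription.
Insl3: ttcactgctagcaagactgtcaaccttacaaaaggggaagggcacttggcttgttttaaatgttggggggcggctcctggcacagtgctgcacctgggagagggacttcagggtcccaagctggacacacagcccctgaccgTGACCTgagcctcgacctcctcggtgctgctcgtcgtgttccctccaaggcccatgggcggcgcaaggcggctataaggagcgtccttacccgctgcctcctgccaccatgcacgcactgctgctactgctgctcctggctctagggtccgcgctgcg

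Of 33469 windows of 300 bases, 16.2% held AGGTCA on either strand. Windows were given for 7 of the 9 genes, and AGGTCA was found in those of Insl3, Lhcgr and Nr0b1, with 1 match each. The longer SF-1 word CAAGGTCA and the NUR77 word AAAGGTCA both end in AGGTCA, and were held by 1.52% and 1.43% of all windows and by none of the 7. GATA words, searched as AGATAA or AGATAG with a leading A and as TGATAA or TGATAG with a leading T, were held by 30.3% of all windows and by that of Nr5a1 with 1 match. These are matches of letters in 1 window and not measured binding.

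Values are log2 ratios of MEHP over the vehicle pool from the deposited ratios, so that −1 means that the MEHP signal was at 0.5 of the vehicle signal. The labels place MEHP on the green dye Cy3 in every array, whereas according to the methods each pair was run with exchanged dyes. The first hybridization of each pair was read as MEHP on green and the repeat as MEHP on red, which makes the direction likely rather than certain. Over all probes, the red over green ratios of different testes correlated at r of 0.232 to 0.536 among the first hybridizations and 0.04 to 0.605 among the repeats, across probes, which are not independent replicates. Between the 2 hybridizations of a testis, which exchanged dyes would turn against each other, r was 0.27 at 1 µM and 0.0266, −0.545 and −0.0942 in testes 1, 2 and 3 at 10 µM. The pairs of the 1 µM testis and of testis 1 were thus not negative, and over the probes tested at 10 µM only the 1 µM pair was positive, at 0.124.

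The arrays differed in how much they measured. Between 9.23% and 31.9% of 43379 spots were well above background in the vehicle RNA on the 8 arrays. In the MEHP RNA the share was 7.8% to 29.8% on the arrays of the 1 µM testis and of testes 1 and 3 at 10 µM, but only 0.249% and 1.54% on those of testis 2 at 10 µM. Over the 9913 probes tested at 10 µM, testes 1, 2 and 3 had median log2 ratios of 0.09, −1.13 and −0.20. The values of testis 2 are therefore given apart for each measured probe of the 9 genes, while medians of gene lists at 10 µM pool the 3 testes unless stated. Whole testis RNA was measured, in which fewer Leydig cells and less RNA per Leydig cell cannot be told apart.

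The vehicle pool held signal of the testis and of Leydig cells. Of 10 Sertoli cell markers on the array, 7 were well above background in the vehicle RNA on at least 4 of 8 arrays, Sox9 and Amh on all 8. Of 7 Leydig cell markers the vehicle RNA was well above background for Insl3 on 8 arrays, Cyp17a1 on 6, Hsd3b1 on 5, Star on 4 and Cyp11a1 on 2. Lhcgr and Nr5a1 were above background on none.

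Insl3 was lower with MEHP in every hybridization of the study. The 1 µM testis gave log2 ratios of −1.96 and −1.65, the first hybridization being given before the repeat here and for the genes that follow. At 10 µM the values of the 2 hybridizations were −1.49 and −1.57 in testis 1, −2.33 and −2.14 in testis 2, and −1.48 and −1.68 in testis 3. No hybridization lay above −1.48, and the values at 1 µM fell inside the range at 10 µM. Of 9876 probes with a ratio on all 8 arrays, 13.4% were below 0 on all 8, so a negative sign on every array was not rare.

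The mean over the 3 testes at 10 µM was −1.78 ± 0.39 (SD, n = 3), which is a 3.44-fold lower level than in the vehicle pool. In limma the 95% confidence interval was −2.88 to −0.68 and the adjusted p 0.059, which missed the threshold of 0.05. Of the 9913 probes, 1.87% were called lower and 0.373% higher at that threshold. The unadjusted p of Insl3 was 0.00169 in limma, and 15.9% of the probes were lower at an unadjusted p under 0.05.

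Without testis 2 the limma mean of Insl3 was −1.56, and the adjusted p 0.0149 passed the threshold. In that fit 9.85% of all probes were called lower and 7.45% higher. Relative to the median of the tested probes on each array, Insl3 was lower by log2 differences of −1.64, −1.05 and −1.30 in testes 1, 2 and 3. Testis 2, with the lowest ratio of Insl3, thus had the smallest difference once its array medians were taken off.

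The signals behind these ratios were low in the MEHP RNA. The vehicle pool gave processed signals of Insl3 between 596 and 2798 and was well above background on all 8 arrays. The MEHP RNA gave 135 to 561 and was well above background on both arrays at 1 µM and on 3 of 6 arrays at 10 µM, which were those of testis 1 and the repeat of testis 3. On both arrays of testis 2 Insl3 was measured in the vehicle RNA alone. With normexp background correction and loess in place of the deposited ratios the mean at 10 µM was −0.43 and the value at 1 µM −0.52, and with loess alone they were −0.37 and −0.83. The direction was the same and the size of the difference was less than the deposited ratios gave.

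**Figure D1:**
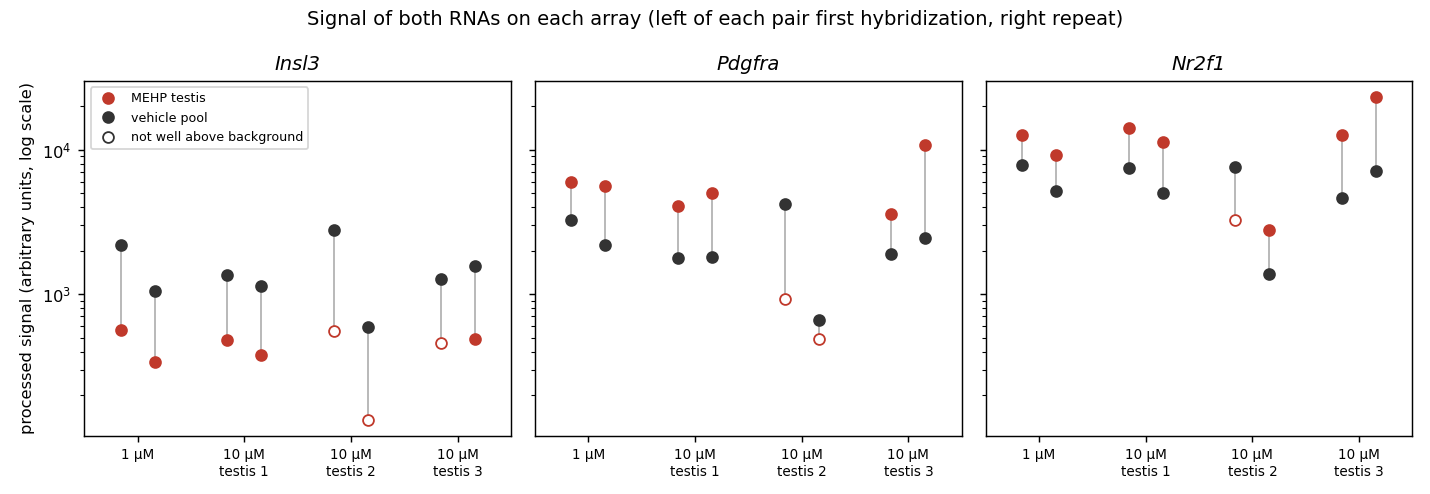
Processed signal of Insl3, Pdgfra and the brighter Nr2f1 probe on each array (y axis, arbitrary units, log scale), for the 1 µM testis and the 3 testes at 10 µM (x axis), with the MEHP testis in red and the vehicle pool in dark grey, the first hybridization at the left of each pair. Open points were not well above background. The vehicle signal of Insl3 lies above the MEHP signal on all 8 arrays, and the order is the opposite for Pdgfra outside testis 2 and for Nr2f1 on every array but the first of testis 2.

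Insl3 was measured alike under both dye orientations. The difference between the repeat and the first hybridization, times 0.5, gives the part of a ratio that follows the dye, positive where a probe is brighter in red whichever RNA it holds. For Insl3 this part was 0.0046 ± 0.135 over the 3 testes other than testis 2 (SD, n = 3), a mean in which values of both signs cancel. The single values were 0.16 at 1 µM and −0.04, 0.09 and −0.10 in testes 1, 2 and 3 at 10 µM. Among all tested probes the median size of the dye part, sign left aside, was 0.303 to 0.467 in the testes at 10 µM and 0.317 at 1 µM. Only 48.4% of probes had the same sign in both hybridizations at 1 µM, and 61.2%, 67.1% and 64.7% in testes 1, 2 and 3 at 10 µM.

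The doses could not be told apart for Insl3. The limma difference of 10 µM minus 1 µM was 0.03 with a 95% confidence interval of −2.17 to 2.23 and an adjusted p of 1, in a fit that assumes the lone testis to vary like the others. Such an interval leaves room for a difference of over 4-fold in either direction. No probe of 9876 passed the adjusted threshold in this limma fit, and 24 had an unadjusted p under 0.05. Slide and dose overlapped in part, since slide 1 held testes 1 and 2 at 10 µM and slide 2 held testis 3 and the 1 µM testis. The mean at 10 µM was −1.88 on slide 1 (n = 2) and −1.58 on slide 2 (n = 1), and within slide 2 testis 3 was 0.23 above the 1 µM testis. With the slide as a block, the limma mean was −1.73 with an adjusted p of 0.409.

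Other members of the relaxin family, hormones and receptors, could not be measured. None of 5 genes of this family on the array, among them the INSL3 receptor under its older name Lgr8, was well above background in either RNA on any array.

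The LH receptor was not measurable either. Both probes of Lhcgr were below the background limit in both RNAs on all 8 arrays. The first had a ratio set to exactly 0 on every array, which the scanner software does where neither signal exceeds the background. The second, averaged over 10 spots, lay between −0.11 and 0.13. These zeros are not measured ratios and say nothing of a change in the receptor.

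Pdgfra, the receptor for PDGF on interstitial cells, was higher with MEHP in every hybridization outside testis 2. Its single probe is also designed on a predicted transcript whose accession was not matched, so that its identity rests on the name in the deposited files. In the 1 µM testis its log2 ratios were 0.88 and 1.35. At 10 µM they were 1.19 and 1.46 in testis 1 and 0.92 and 2.14 in testis 3, against −2.19 and −0.44 in testis 2. In testis 2 the MEHP signal was below the background limit on both arrays, and on the other arrays both RNAs were well above it.

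The limma mean of Pdgfra over 3 testes was 0.52 with a 95% confidence interval of −0.60 to 1.64 and an adjusted p of 0.678. Without testis 2 it was 1.43, a 2.7-fold higher level, with an interval of 0.70 to 2.17 and an adjusted p in limma of 0.0187. At 1 µM the mean of the 2 hybridizations was a 2.17-fold higher level. The ratio of Pdgfra was thus of opposite sign to that of Insl3 in 3 of the 4 testes.

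The transcription factors gave signals of very different quality. Nr5a1, which encodes SF-1, was below the background limit in both RNAs on all 8 arrays, and its ratio was set to 0 on 7 of them. Its single probe is designed on a predicted transcript whose accession was not found in the gene table used here, and no statement on SF-1 was possible from these signals.

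Nr0b1, which encodes DAX-1, a repressor of SF-1, was near the background limit. Its log2 ratios in the first hybridizations were −0.69 at 1 µM and −0.80, −0.47 and −0.95 in testes 1, 2 and 3 at 10 µM. In the repeats they were 1.25 at 1 µM and 1.09 in testis 1, and were set to 0 in testes 2 and 3. The sign thus followed the dye and not the treatment, and the dye part was 0.80 ± 0.28 (SD, n = 3 testes other than testis 2). It was well above background in the MEHP RNA on 2 of 8 arrays and in the vehicle RNA on 1, and failed the filter at 10 µM.

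Nr2f1 encodes COUP-TFI, which binds AGGTCA elements. Its brighter probe was well above background in the vehicle RNA on all 8 arrays and in the MEHP RNA on 7. Log2 ratios were 0.70 and 0.83 at 1 µM, 0.92 and 1.16 in testis 1 and 1.45 and 1.70 in testis 3. In testis 2 they were −1.22 and 1.00, so that the hybridizations of this testis disagreed in sign. Leaving testis 2 aside, the lowest of the 6 values was 0.70.

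The limma mean of Nr2f1 at 10 µM was 0.84, with a 95% confidence interval of −0.27 to 1.94 and an adjusted p of 0.444. Without testis 2 it was 1.31, a 2.48-fold higher level, with an adjusted p of 0.0267 in limma. Relative to the array medians Nr2f1 was at 0.94, 1.08 and 1.85 in testes 1, 2 and 3, so testis 2 did not stand apart for this gene. By the same measure Pdgfra, Nr2f2 and Nr4a1 were at −0.12, −0.28 and 0.03 in testis 2, each its lowest testis. After centring of the arrays limma gave Nr2f1 an adjusted p of 0.0687 over the 3 testes. Normexp with loess gave 0.86 and loess alone 0.82, close to the value from the deposited ratios. The second probe of Nr2f1 was below the background limit in both RNAs on all arrays, with ratios between −0.38 and 0.85.

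Nr2f2 encodes COUP-TFII, the relative of COUP-TFI found in interstitial precursors. Its log2 ratios were −0.57 and 1.48 at 1 µM, 1.84 and 1.20 in testis 1, −1.74 and −1.21 in testis 2, and 0.06 and 2.99 in testis 3. The sign differed between the hybridizations at 1 µM, and in testis 3 the first lay near 0 while the repeat was the highest value of this gene. Outside testis 2 the vehicle RNA was well above background on all 3 arrays on which it was red and on none of the 3 on which it was green. The limma mean of 0.52 over 3 testes had an adjusted p of 0.673, and the mean of 1.52 without testis 2 one of 0.0157. The limma fit averages the hybridizations first and does not see their disagreement.

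Nr4a1 encodes NUR77, an immediate early factor downstream of LH. Its log2 ratios were 1.15 and 1.40 at 1 µM, 0.80 and 2.93 in testis 1, −1.39 and −0.94 in testis 2, and 0.13 and 1.20 in testis 3. All 6 values outside testis 2 were above 0, though both RNAs were well above background on only 4 of those arrays, 2 at 1 µM and 1 each of testes 1 and 3. The limma mean was 0.46 over 3 testes with an adjusted p of 0.727, and 1.26 without testis 2 with an adjusted p of 0.0418. With the first hybridizations alone the mean at 10 µM was −0.15, and without testis 1 it was −0.25.

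Gata4 encodes a zinc finger factor of Sertoli and Leydig cells. Its log2 ratios were −0.35 and 0.05 at 1 µM, −0.20 and −0.66 in testis 1, −1.21 and 0.04 in testis 2, and −1.21 and 0.42 in testis 3. At 10 µM the mean was −0.47 ± 0.10 (SD, n = 3) and limma gave an adjusted p of 0.71, or 0.414 when testis 2 was left out. The testes agreed closely while their hybridizations did not, and Gata4 was never well above background in both RNAs on the same array. It was seen in the red RNA alone on 7 of 8 arrays, and in neither on the repeat of testis 2. Relative to the array medians its mean was −0.01.

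**Figure D2:**
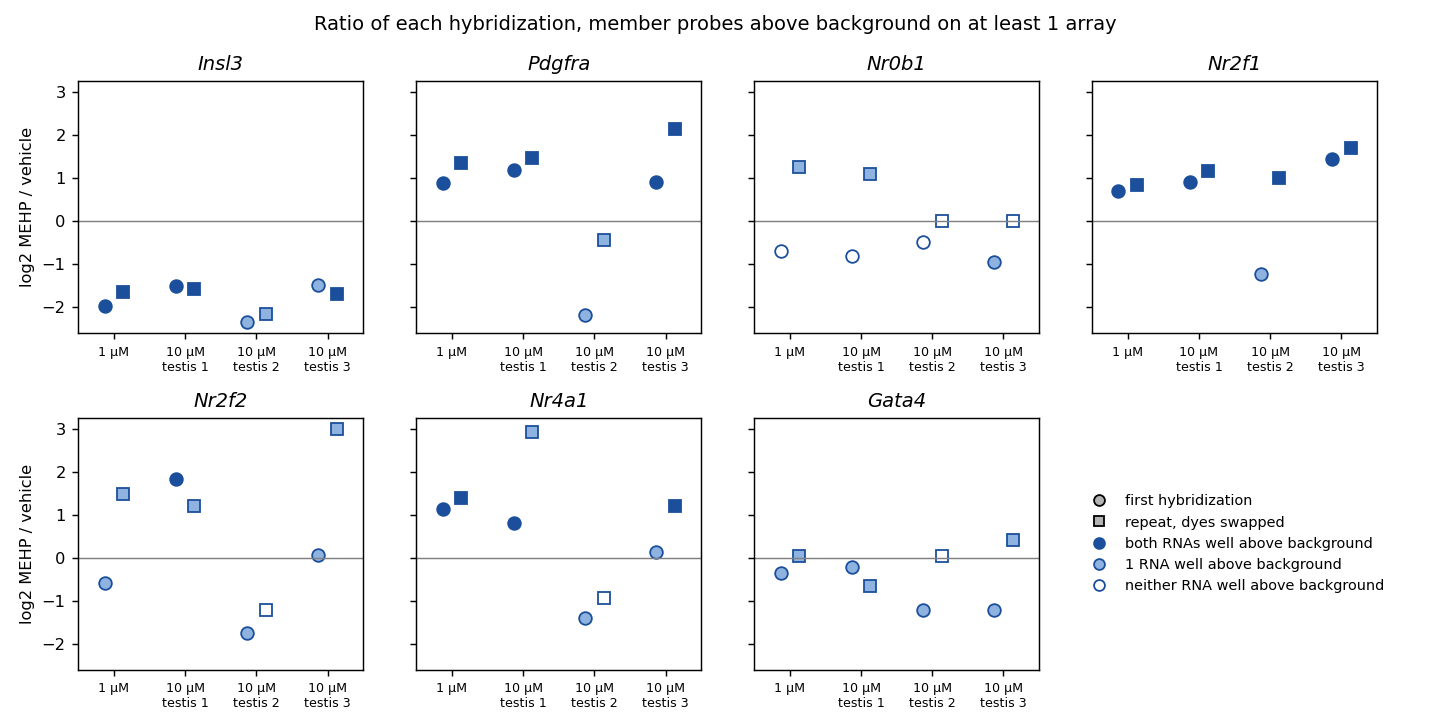
Log2 MEHP over vehicle ratio (y axis) of the 7 probes that were well above background on at least 1 array, for the 1 µM testis and each testis at 10 µM (x axis); circles are first hybridizations and squares repeats with exchanged dyes, filled by how many of the RNAs were well above background. Insl3 lies at −1.48 or lower throughout, Pdgfra and Nr2f1 lie at 0.70 or higher outside testis 2, and Nr0b1 lies below 0 in the first hybridizations alone.

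In sum over the probes, 6 of 11 passed the filter on dim signals at 10 µM, and in the limma fit of 3 testes 0 of the 6 passed the adjusted threshold, with 1, Insl3, at an unadjusted p under 0.05. Of all tested probes 15.9% were lower at that unadjusted p. Without testis 2, limma called 1 of 6 lower, Insl3, and 4 of 6 higher, Pdgfra, Nr2f1, Nr2f2 and Nr4a1. These shares stood beside 9.85% and 7.45% of all probes. After testis 1 or testis 3 was left out instead, 0 passed. At 1 µM, with 1 testis and no test, a change of at least 1.5-fold in both hybridizations was counted. By that rule 1 of 7 measured probes was lower, Insl3, and 3 were higher, Pdgfra, Nr2f1 and Nr4a1. Over all 13174 probes the shares were 2.96% lower and 4.05% higher.

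**Figure D3:**
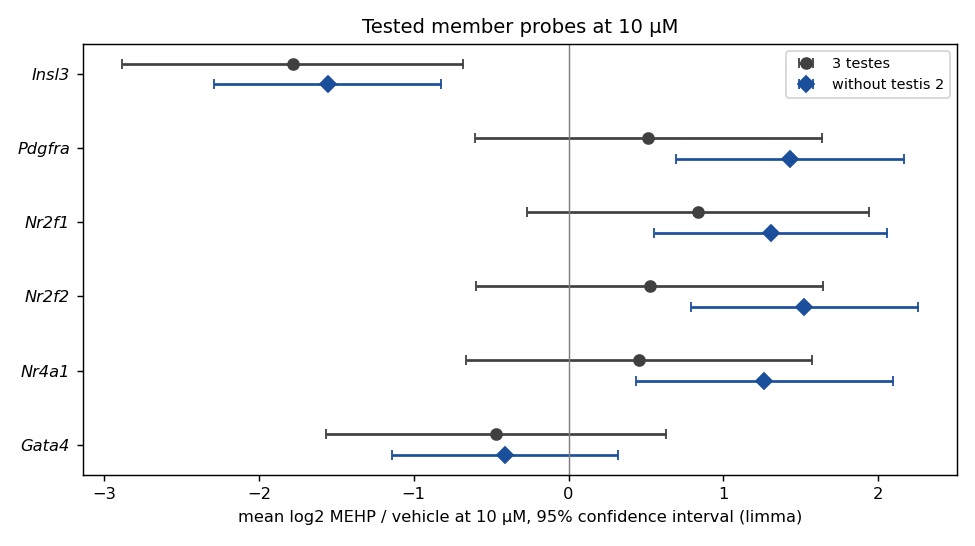
Mean log2 MEHP over vehicle ratio at 10 µM (x axis) of the 6 tested probes (y axis), with 95% confidence intervals from limma, over 3 testes (grey circles) and without testis 2 (blue diamonds). The interval of Insl3 lies below 0 in both fits, whereas those of Pdgfra, Nr2f1, Nr2f2 and Nr4a1 exclude 0 only without testis 2.

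The genes of steroid synthesis, which share SF-1 as an activator with Insl3, gave mixed values at the 2 doses. Of 9 tested at 10 µM, 1 was called lower and 0 higher in limma, and the median of the list was −1.01 against −0.42 over all tested probes. The gene called was Cyp17a1, which encodes the enzyme that turns progestins into androgen precursors. Testes 1, 2 and 3 gave −2.22, −1.60 and −2.07 for it, and limma a mean of −1.96 at an adjusted p of 0.0394. The MEHP RNA was well above background for Cyp17a1 on only 2 of these 6 arrays, the repeats of testes 1 and 3. Neither RNA was on the repeat of testis 2, so that the sizes are uncertain. Cyp17a1 thus passed the filter, which asked for 3 arrays, through the vehicle RNA alone, and its p is no measure of a change. The call was lost in 11 of 15 alternatives, among them centring, either hybridization alone and the omission of testis 1 or 3, and with normexp and loess the mean was −0.26. In the list 3 of 9 were lower at an unadjusted p under 0.05 in limma, against 15.9% of all probes. Without testis 2, 3 of 9 were called lower and 0 higher, against 9.85% and 7.45%. Both counts of 3 include Cyp17a1 and Hsd3b1. For Hsd3b1 the MEHP RNA was well above background on 0 of 6 arrays and the vehicle RNA on 4. Hsd3b1 thus passed the filter through the vehicle RNA alone, and its p is no measure of a change. At 1 µM 1 of 11 was lower, Cyp17a1 at −1.23 and −0.98, and 5 were higher, beside 2.96% and 4.05% of all probes. The list median was 0.78 there, against 0.02 over all probes. The 4 largest of these, Star, Fdx1, Scarb1 and Fdxr, supply cholesterol or electrons to the first enzyme. Of the 7 Leydig cell markers, which include Insl3 and steroid genes, 4 were tested at 10 µM, with a median of −1.48. In limma 1 was called lower, 3 were lower at an unadjusted p under 0.05, and 3 were called lower without testis 2. The shares over all probes were 1.87%, 15.9% and 9.85%. Cyp17a1, the 1 called, and Hsd3b1 are again in both counts of 3. At 1 µM 2 of 5 were lower, Insl3 and Cyp17a1, and 2 higher, Star and Cyp11a1, beside 2.96% and 4.05% of all probes.

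Star, the carrier of cholesterol into mitochondria, was at 1.83 at 1 µM and at 1.27, −1.08 and −1.86 in testes 1, 2 and 3 at 10 µM. In testes 2 and 3 the MEHP RNA was not well above background for Star on any array, and on their repeats neither RNA was. Its limma mean at 10 µM was −0.56 with an adjusted p of 0.645. Fdx1, the electron donor of mitochondrial steroid enzymes, was at 1.23 at 1 µM and at −0.59, −2.38 and −2.29 at 10 µM, with an adjusted p in limma of 0.0643, or 0.0376 without testis 2. The limma difference between doses was −2.98 for Fdx1, with a 95% confidence interval of −5.19 to −0.76 and an adjusted p of 1. Scarb1, a lipoprotein receptor, was at 1.05 at 1 µM and at 1.46, −1.72 and −0.04 in testes 1, 2 and 3. Its limma mean at 10 µM was −0.10 with an adjusted p of 0.957, and turned to 0.71 with 0.238 without testis 2. Fdxr, the reductase of Fdx1, was at 0.85 at 1 µM and at 0.25, −1.61 and −0.42 in the 3 testes. Its limma mean was −0.59 with an adjusted p of 0.616, and −0.08 with 0.89 without testis 2. In testis 2 the MEHP RNA was not well above background for Fdx1, Scarb1 or Fdxr on either array.

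Markers of the adrenal gland were seen in the same 1 µM testis. Cyp11b1, the adrenal enzyme of the last step of glucocorticoid synthesis, had MEHP signals of 2812 and 2005 at 1 µM, while the vehicle RNA was not well above background on any array. Its level at 1 µM was at least 11.4-fold higher than in the pool, a bound set against the lowest signal well above background. Cyp11b2, the aldosterone enzyme, was at least 1.49-fold higher by the same measure, with 1 of 2 arrays above background. In testis 1 at 10 µM Cyp11b1 had MEHP signals of 231 and 279, and 1 of the 2 arrays was well above background. In testes 2 and 3 no RNA was above that limit.

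Of 5 mesonephros and adrenal markers on the array, 3 were well above background in the MEHP RNA at 1 µM, Cyp11b1, Cyp11b2 and the ACTH receptor gene Mc2r, 1 in testis 1, and 0 in testes 2 and 3. By the 1.5-fold rule 2 of 3 were higher at 1 µM, against 4.05% of all probes, and none could be tested at 10 µM. These 3 passed the filter at 1 µM through the MEHP RNA alone, so that their share is no measure of a change. The summed processed signal of the list was 3000 in the MEHP RNA at 1 µM, 485 in testis 1, 776 in testis 2 and 276 in testis 3, and 253 to 675 in the vehicle RNA. Cyp21a1 and Pax8 were above background on no array. The part of these markers in the 1 µM values of Star, Fdx1 and the other steroid genes was not tested. The 5 markers were not well above background in testes 2 and 3. In testis 2 this says nothing, since the MEHP RNA was well above background there for 0 of the 10 Sertoli markers as well. In testes 2 and 3 the ratios were −2.235 and −1.58 for Insl3, −1.31 and 1.53 for Pdgfra, and −0.11 and 1.57 for Nr2f1. At 1 µM the 3 genes were at −1.81, 1.12 and 0.76. The part of the markers in these values was not tested either.

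**Figure D4:**
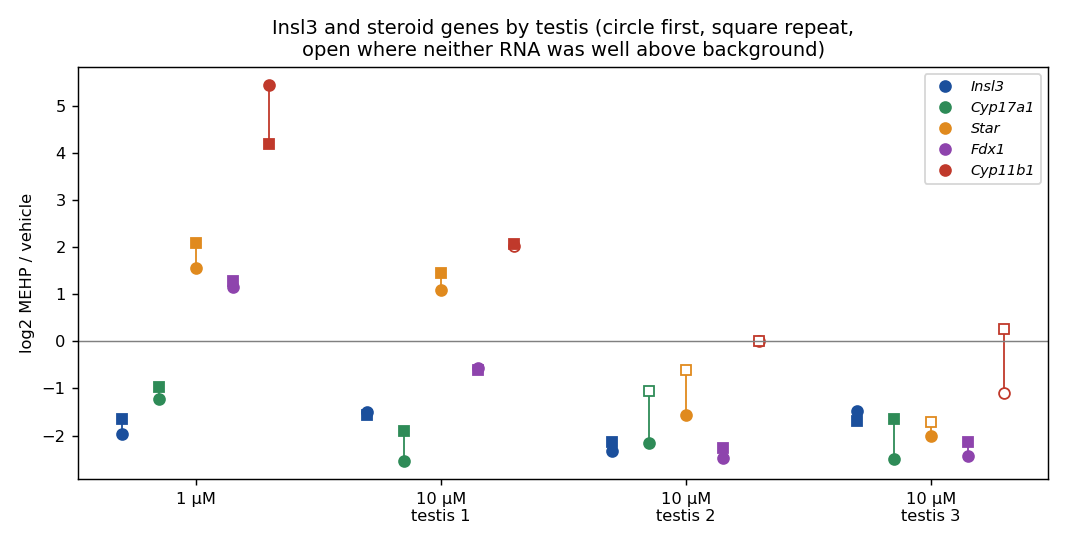
Log2 MEHP over vehicle ratio (y axis) of Insl3, Cyp17a1, Star, Fdx1 and the adrenal gene Cyp11b1 in each testis (x axis); circles are first hybridizations, squares repeats, and open symbols mark arrays on which neither RNA was well above background. Insl3 and Cyp17a1 lie below 0 in all 4 testes, while Star lies above 0 at 1 µM and in testis 1, where Cyp11b1 also lies above 0.

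Among transcription partners, 0 of 8 tested at 10 µM passed the adjusted threshold in limma, and their median was −0.42, as over all probes. At an unadjusted p under 0.05 in limma it was also 0, and without testis 2, 1 of 8 was called higher, against 7.45% of all probes. At 1 µM 4 of 12 were higher, against 4.05% of all probes. Ncor1, a corepressor of nuclear receptors, was at 0.87 and 1.21, Cited2, a cofactor of SF-1 in the early gonad, at 1.09 and 1.43, and Cebpb, a factor of cAMP responses, at 1.13 and 0.78. Cited2 was seen in the red RNA alone on both arrays at 1 µM. Nr4a3, a relative of NUR77, was at 1.61 and 1.21 with the vehicle RNA below the background limit, and no fold is given for it. Nr4a3 passed the filter through the MEHP RNA alone, so that its place among the 4 is no measure of a change.

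Ligands and hedgehog genes around Pdgfra gave no call at 10 µM in limma among 4 tested, with a median of 0.11. At an unadjusted p under 0.05 in limma 1 was lower, Dhh, against 15.9% of all probes. Without testis 2 there were 1 lower call, Dhh again, and 2 higher, against 9.85% and 7.45% of all probes. At 1 µM 1 of 4 was lower, against 2.96% of all probes. It was Dhh, the Sertoli cell hedgehog ligand that acts on Leydig precursors, at −1.78 and −1.17. At 10 µM the MEHP RNA was below the background limit for Dhh on all 6 arrays and the vehicle RNA above it on 4, so that Dhh passed the filter through the vehicle RNA alone and its p (adjusted 0.186 in limma) is no measure of a change. Of the cAMP pathway below the LH receptor, 0 of 3 were called at 10 µM in limma, adjusted or not, with a median of 0.02. At 1 µM 1 of 4 was higher, the adenylate cyclase gene Adcy6 at 0.79 and 0.59, against 4.05% of all probes.

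Markers of the other cells of the testis were read beside these values. Of Sertoli markers, 1 of 7 tested was called lower at 10 µM in limma, Aard, at −2.30 with an adjusted p of 0.0165, and 0 higher. Aard was at −1.44, −2.94 and −2.51 in testes 1, 2 and 3, with the MEHP RNA not well above background in testis 2. Its call was lost in 10 of 15 alternatives, among them normexp and loess, the first hybridizations alone and the omission of testis 1 or 3. Of the list, 4 of 7 were lower at an unadjusted p under 0.05 in limma, against 15.9% of all probes. Without testis 2, 4 of 7 were called lower, against 9.85%. Both counts include Dhh, which passed the filter through the vehicle RNA alone. The second also includes Ptgds, for which the MEHP RNA was well above background on 1 of 6 arrays and the vehicle RNA on 4. Ptgds thus passed the filter in the same way, and neither p is a measure of a change. At 1 µM 1 of 7 was lower, Dhh, against 2.96% of all probes. The median of the Sertoli list was −0.77, −1.29 and −1.40 in testes 1, 2 and 3. Of the tested markers of germ cells (1), peritubular cells (3), endothelium (1) and macrophages (3), limma called 0, adjusted or not. Without testis 2, limma called 1 of them lower, a peritubular marker, against 9.85% of all probes. For this marker the MEHP RNA was well above background on 1 of 6 arrays and the vehicle RNA on 3. It passed the filter through the vehicle RNA alone, so that its p is no measure of a change. The list medians of these cell types over the 3 testes were −0.37, −0.37, −0.08 and −0.50 against −0.42 over all probes, and their part in the values of the 9 genes was not tested.

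The genes most like Insl3 across the 8 arrays were found by the root mean square of the differences in log2 ratio, among 2692 probes with a vehicle signal well above background on at least 6 arrays. The median distance was 1.48. The nearest was Gnb1, a G protein beta subunit, at 0.452, followed by Thyn1 at 0.549, Lyplal1_predicted at 0.586, Med28_predicted, a Mediator subunit, at 0.594, and Nfe2l2, the oxidative stress factor NRF2, at 0.595. At 1 µM all 5 lay between −1.07 and −0.72, whereas Insl3 was at −1.81. At 10 µM their limma means lay between −1.98 and −1.68, and their values in testis 2 between −2.41 and −1.67. The 5 were picked for closeness to Insl3 on these same arrays, so means near that of Insl3 follow from the choice. Gnb1 and Lyplal1_predicted passed the adjusted threshold in limma with 0.0388 and 0.0384, which for genes picked in this way is no separate result. Those calls were lost, as were those of all probes, without testis 1 or testis 3. For the 5 genes the MEHP RNA was well above background on only 4 or 5 of 8 arrays.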

How the data were processed

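The 9 genes, their lists and the tests were chosen with earlier results of these data known. The authors scanned 2-colour arrays and extracted the images with Agilent Feature Extraction, version 9.1.1.1 per the file headers, 9.1 in the submitters' processing notes and another version in the methods. They deposited for each spot the log10 ratio of red over green after background subtraction and dye normalization, processed, mean and local background intensity of each dye, and flags. They also deposited lists of fold changes with p-values for each dose, not used here.

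The log10 ratios were converted to log2 and turned to MEHP over vehicle. Control and outlier spots were left out, spots of a probe averaged, and the 2 hybridizations of a testis averaged to 1 replicate. A probe was tested if it had a ratio on every array of the dose and was well above background in at least 1 RNA on at least 3 of 6 arrays at 10 µM or 1 of 2 at 1 µM, which left 9913 and 13174 of 41012 probes. The mean of the 3 testes was compared with 0 in limma 3.58.1 (lmFit, eBayes) under R 4.3.3, two-sided, p-values being adjusted by Benjamini-Hochberg across every probe tested, at a threshold of 0.05. At 1 µM a call needed 1.5-fold in both hybridizations. A bound was set against the lowest signal well above background in that RNA on each array, after Aquantile normalization of the deposited ratios, and is open to dye bias. The script was tested on simulated data. Arrays carry no counts, and their number limits the precision. By accession 10735 probes, 9 of the 11 among them, were matched to a GRCr8 gene table, used for names only.

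The text names every probe of the 9 genes, the 5 nearest to Insl3, and up to 5 genes a list that passed the adjusted threshold or 1.5-fold at 1 µM, with the brightest probe of each. Hsd3b1, Ptgds, Cyp21a1, Pax8, Mc2r, Lgr8, Sox9 and Amh were named for their detection alone. Alternatives were normexp with loess, loess alone, centring, no filter, a filter on both RNAs, inclusion of outlier spots, first or repeat hybridizations only, omission of each testis, a spread assumed for the control pool, an eBayes trend, random block for testis, block for slide, and 2-fold at 1 µM. Centring without testis 2 was added after seeing the data.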

Additional observations from a re-analysis of the deposited data

Results flagged for a closer look

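Cyp11a1, the enzyme of the first step of steroid synthesis, was above 0 at 1 µM and below 0 in every testis at 10 µM. Its log2 ratios were 0.80 and 0.76 at 1 µM, with means of −0.27, −0.37 and −0.60 in testes 1, 2 and 3, so that 10 µM minus 1 µM was −1.19. The difference was not tested, since at 10 µM its RNA was well above background on 1 of 6 arrays, in the vehicle pool, and in 2 of 3 testes the hybridizations had opposite signs.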

How the results depend on the processing

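Insl3 at 10 µM stayed below 0 in 15 of 15 alternatives in which it was tested, from −1.91 to −0.37. Its adjusted p in limma ranged from 0.0149 to 1 over the planned ones. It passed the threshold without testis 2, also after centring with −1.47 and 0.000673, and leaving out 1 testis gave −1.91 to −1.56. The filter on both RNAs of every array left none of the 6 probes. The number of the 6 called was 0 in every planned setting but those that leave out a testis, which gave 0 to 5, and 5 after centring without testis 2. At an unadjusted p under 0.05 limma gave 1 of 6 over the 3 testes, beside 1748 of 9913 over all probes. With the arrays centred it gave 5 of 6, beside 2310 of 9913. At 1 µM normexp with loess gave −0.52 for Insl3 and 0 calls among the 9 genes, against 0.501% of all probes, and loess alone gave −0.83. The 4 calls among 7 measured probes became 6 in the repeats alone and 2 at 2-fold. Over all probes the share called was 7.01%, and it became 47.6% in the repeats alone and 1.72% at 2-fold. With the repeats alone a call rests on 1 hybridization.

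Over all probes, 222 calls became 106 after centring (51 lower, 55 higher, against 185 and 37), 87 with a trend, and 0 with normexp and loess, loess alone, no filter, the filter on both RNAs, the first hybridizations alone, a spread assumed for the control pool, the testis as a random block and the slide as a block. At an unadjusted p under 0.05 these settings held 938 to 2908 probes, but 12 of 51 with the filter on both RNAs and 54 with a spread assumed for the pool. The repeats alone gave 230, with 117 lower and 113 higher. Leaving out 1 testis gave 0 to 1715, with 0 without testis 1 or 3, where 1360 and 491 had an unadjusted p under 0.05. The dose difference of Insl3 reversed to −0.15 in the repeats alone and ranged from −0.10 to 0.25 when 1 testis at 10 µM was left out, negative without testis 1 or testis 3. The first hybridizations alone reversed Nr4a1 to −0.15 and Pdgfra to −0.023, and leaving out a testis gave −0.25 to 1.26 for Nr4a1. In the first hybridizations only testis 2 was below 0 for these genes. Testes 1, 2 and 3 were at 0.80, −1.39 and 0.13 for Nr4a1 and at 1.19, −2.19 and 0.92 for Pdgfra. The cause of the shifts was not tested. No paired analysis was possible because only the 10 µM group carries replicate numbers.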
